A study of Bos taurus with 6 samples.

Results

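The miR-17-92 cluster is a group of microRNAs (miRNAs) cut from 1 long primary transcript, the host gene MIR17HG. Its members were taken by name from the table of counted small RNAs, as the known bovine miRNAs called 17, 18a, 19a, 19b, 20a or 92a, with either arm of a hairpin. This gave 7 rows, bta-miR-17-5p, bta-miR-17-3p, bta-miR-18a, bta-miR-19a, bta-miR-20a, bta-miR-19b and bta-miR-92a (the species prefix is mostly left out below), of 771 known miRNAs and of 879 known and predicted miRNAs. The rule used names alone, no measured value, but it was chosen with earlier results of these data known. All 7 passed the filter on low counts, with between 7 and 45870 reads in a library.

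Adipocytes (n = 3) and preadipocytes (n = 3) of Holstein cattle were compared by small RNA sequencing, in cells grown from adipose tissue and used at passage 4 to 6. Preadipocytes are cells committed to becoming fat cells, and both groups were cultured in F12/DMEM that held fetal bovine serum and antibiotics. The labels give induction with insulin, dexamethasone, rosiglitazone and IBMX in a protocol text shared by all samples, and the group was taken from the cell type. The length of the induction and the animal or culture behind each replicate are not stated in the labels, so each p-value describes how these samples spread, and that spread may be technical.

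A miRNA is a short RNA that guides Argonaute proteins to messenger RNAs, mainly through its seed, the bases near its 5′ end. The miR-17-92 transcript is induced by the transcription factors MYC and E2F and is best known as an oncogenic cluster in lymphoma. Its miRNAs restrain the cell-cycle inhibitor CDKN1A and the death-promoting BCL2L11, and in mouse cell lines the cluster has been described as favouring adipocyte differentiation through the retinoblastoma relative RBL2. The hairpins fall into 4 seed families. The miR-17 family holds miR-17-5p and miR-20a, miR-18a is the only member of the miR-18 family in the cluster, the miR-19 family holds miR-19a and miR-19b, and miR-92a belongs to the miR-25 and miR-92 family. In RefSeq's bovine gene list (assembly ARS-UCD2.0), where all 6 member hairpins matched a gene, they follow each other in the order MIR17, MIR18A, MIR19A, MIR20A, MIR19B and MIR92A-1. Further genes for miR-19b and miR-92a, MIR19B-2 and MIR92A-2, lie in the paralogous miR-106a-363 cluster, so reads of these 2 members cannot be assigned to either cluster.

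The libraries held 15035059 to 19123498 miRNA reads in adipocytes and 14525284 to 22283754 in preadipocytes. The most abundant miRNA, miR-21-5p, took 64.0% to 74.1% of them in adipocytes and 77.9% to 80.2% in preadipocytes. Levels are given as CPM (counts-per-million) after scaling with edgeR's TMM factors, which were 1.02 to 1.40 in adipocytes and 0.73 to 0.85 in preadipocytes. Since these factors differ between the groups, values in RPM (reads-per-million), taken over miRNA reads without a factor, are given beside the results that depend on them. Reads from exons, introns, repeats and intergenic sequence made up 8.21% to 12.0% of the table in adipocytes. In preadipocyte replicates 1, 2 and 3 they made up 18.5%, 18.9% and 5.29%. Preadipocyte replicate 3 thus lay below all other libraries, and preadipocyte replicates 1 and 2 above all adipocyte libraries. Small RNA carries none of the messenger RNAs that define adipocytes, and lipid accumulation was not analysed here. Of 7 blood cell miRNAs 6 had a row, with summed levels of 0.568 to 1.23 CPM in adipocytes and 1.96 to 4.97 CPM in preadipocytes, where miR-142-3p and miR-144 had 0 reads. The 2 arms of the endothelial miR-126 summed to 43.0 to 67.9 CPM in adipocytes and 114 to 455 CPM in preadipocytes, highest in preadipocyte replicate 3. The 3 muscle miRNAs, mostly miR-1, summed to 20.6 to 25.7 CPM in adipocytes and 21.1 to 52.0 CPM in preadipocytes. Of these, miR-133a lay lower in adipocytes, at 1.24 to 1.89 against 4.32 to 6.97 CPM (edgeR adjusted p = 0.0293). The groups overlapped for miR-1 and miR-206. The part of such cells in the results below was not tested, and in bulk RNA fewer cells of a type cannot be told apart from less RNA per cell.

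The cluster was detected in both cell states at a low share of the miRNA reads. Its 7 members together took 0.304%, 0.284% and 0.244% in adipocyte replicates 1, 2 and 3 and 0.291%, 0.329% and 0.245% in preadipocyte replicates 1, 2 and 3. The means were 0.277% ± 0.031 in adipocytes and 0.289% ± 0.042 in preadipocytes (SD, n = 3 each), and the groups overlapped. Counted over the miRNA reads other than miR-21-5p, the share was 0.844%, 0.848% and 0.940% in adipocytes and 1.32%, 1.56% and 1.24% in preadipocytes. On that basis every adipocyte library lay below every preadipocyte library. Taken singly on the TMM scale, 20.5% of the 414 miRNAs tested below had groups apart in that direction. The cluster's share mostly follows miR-92a, whose reads may come from either cluster. It made up 73.8% to 79.2% of the members' reads in adipocytes and 83.4% to 95.5% in preadipocytes. The reads behind these shares numbered 42884 to 46629 in adipocytes and 47848 to 54535 in preadipocytes. The 95% Wilson interval of the share of all miRNA reads ran from 0.301% to 0.307% in adipocyte replicate 1, and such intervals cover counting error only.

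The members of the cluster differed widely in level. All have a hairpin in the same transcript, but reads of the highest, miR-92a and miR-19b, may also come from the miR-106a-363 cluster. In all 6 libraries the order by reads was miR-92a, miR-19b, miR-20a, miR-18a, miR-17-5p, miR-19a and miR-17-3p. In adipocytes the TMM-scaled levels were 1719 ± 142 CPM for miR-92a, 361 ± 84.3 for miR-19b, 94.1 ± 18.0 for miR-20a, 25.4 ± 2.69 for miR-18a, 18.5 ± 3.72 for miR-17-5p, 5.07 ± 2.65 for miR-19a and 2.89 ± 1.33 for miR-17-3p (mean ± SD, n = 3). In preadipocytes they were 3212 ± 477, 209 ± 147, 91.0 ± 36.3, 31.9 ± 15.5, 19.3 ± 6.40, 3.53 ± 1.31 and 1.01 ± 0.43 CPM in the same order. The ranges of neighbours in this order overlapped for miR-19a and miR-17-3p in adipocytes, and for miR-19b and miR-20a and for miR-18a and miR-17-5p in preadipocytes. The other neighbouring ranges lay apart within each group, miR-18a and miR-17-5p in adipocytes only narrowly (at least 22.9 and at most 22.4 CPM). miRNAs are of nearly equal length, so no division by length was needed, but adapter ligation is known to favour some small RNA ends over others. By its mean over all 6 libraries, miR-92a ranked 21 and miR-17-5p 180 among the 879 miRNAs.

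**Figure D1:**
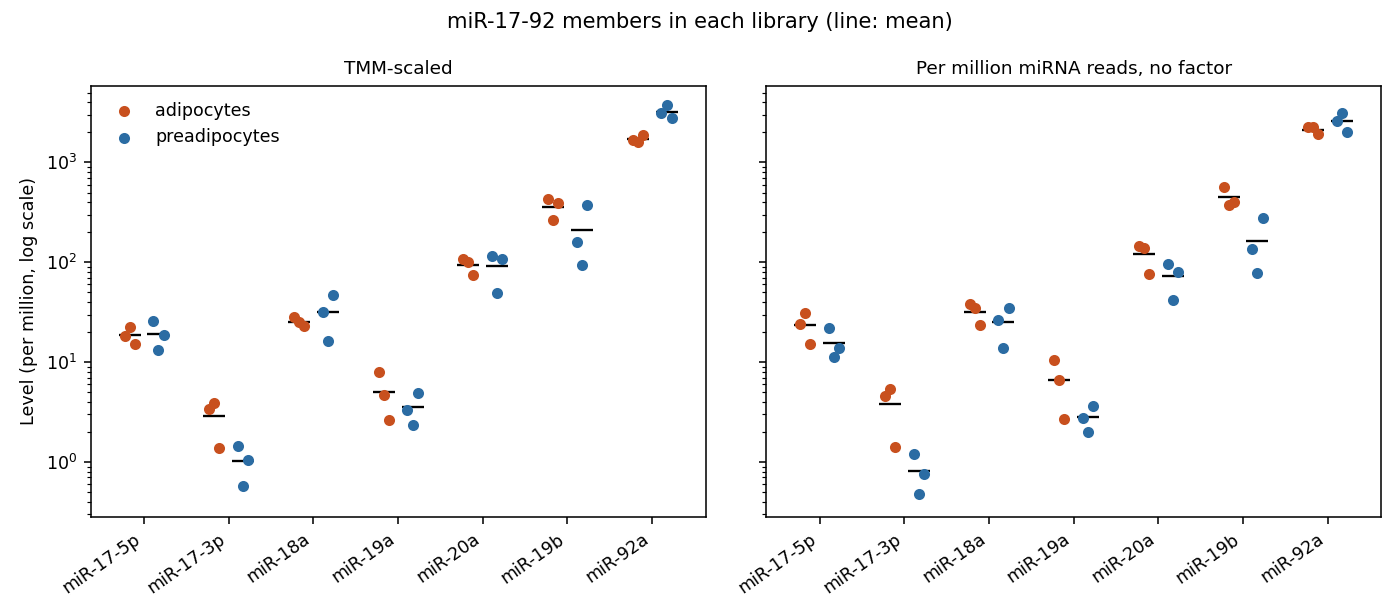
Level of each miR-17-92 member in every library, on a log axis, after TMM scaling (left) and in RPM without a factor (right). Each point is a library and each line a group mean (n = 3); miR-92a lay lower in all adipocyte libraries on the TMM scale, and miR-17-3p and miR-19b lay higher in all adipocyte libraries without a factor.

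The design asks which miRNAs differ between adipocytes and preadipocytes. In edgeR's quasi-likelihood test with Benjamini-Hochberg (BH) adjustment over all 414 tested miRNAs, 0 of the 7 members passed an adjusted p of 0.05, where 6.28% of all tested miRNAs did. At an unadjusted p of 0.05, 2 members passed, miR-92a and miR-17-3p, against 34.1% of all tested miRNAs. On the TMM scale the groups lay apart for 1 member, against 44.7% of all tested miRNAs. This was miR-92a, lower in adipocytes, as were 20.5% of all tested miRNAs with groups apart in that direction. Log2 differences of adipocytes over preadipocytes were positive for 4 members and negative for 3. Their median was 0.05, beside -0.02 for all tested miRNAs. DESeq2, run on all 879 miRNAs, called 1 of the 7 members, miR-92a, where it called 13.2% of all miRNAs. Without preadipocyte replicate 3, edgeR called 2 of the 7 members, miR-92a as lower and miR-19b as higher, where it called 31.8% of the 465 miRNAs tested. This count is near that share. The DESeq2 share is over all 879 miRNAs, and any left without an adjusted p count as not called. It can thus understate the share among miRNAs that DESeq2 tested, and the DESeq2 count was not set against that share. With any other library left out, edgeR called 0 members and from 1 to 8 of all miRNAs.

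bta-miR-92a, known for restraining angiogenesis in mouse endothelium, was the most abundant member and the one with the smallest p. It had 33693, 33957 and 36747 reads in adipocyte replicates 1, 2 and 3, against 45870, 45701 and 45456 reads in preadipocyte replicates 1, 2 and 3. After TMM scaling these were 1670, 1608 and 1879 CPM in adipocytes and 3135, 3722 and 2777 CPM in preadipocytes. The groups did not overlap on this scale. The log2 difference was -0.90 (SE 0.22, edgeR adjusted p = 0.0588), which missed the threshold. Without preadipocyte replicate 3 it was -1.01 and passed (edgeR adjusted p = 0.0255). It also passed with upper-quartile factors (-1.20), with a minimum of 10 CPM (-1.11), with known miRNAs alone (-0.94) and in DESeq2 (-0.86). With library totals alone the log2 difference was -0.29 (edgeR adjusted p = 0.416). Without a factor the levels were 2241, 2247 and 1922 RPM in adipocytes and 2630, 3146 and 2040 in preadipocytes, and the groups overlapped.

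bta-miR-19b, of the seed family that carries most of the cluster's activity in mouse lymphoma models, pointed the other way. Its reads numbered 8630, 5630 and 7616 in adipocytes and 2350, 1141 and 6130 in preadipocytes. The TMM-scaled levels were 428, 267 and 389 CPM in adipocytes and 161, 92.9 and 375 CPM in preadipocytes. The groups overlapped because preadipocyte replicate 3 reached the adipocyte range, and the log2 difference was 0.79 (SE 0.53, edgeR adjusted p = 0.314). Without preadipocyte replicate 3 it was 1.52 and passed (edgeR adjusted p = 0.0334), and without preadipocyte replicate 2 it was 0.39. Without a factor the levels in RPM were 574, 373 and 398 in adipocytes and 135, 78.6 and 275 in preadipocytes. On that basis the groups lay apart for 2 of the 7 members, miR-19b and miR-17-3p, both higher in adipocytes, against 38.6% of all tested miRNAs in that direction. The scarcer bta-miR-19a, with the same seed, had 159, 100 and 51 reads in adipocytes and 48, 29 and 81 in preadipocytes. Its levels overlapped at 2.61 to 7.88 CPM in adipocytes and 2.36 to 4.95 CPM in preadipocytes, with a log2 difference of 0.52 (SE 0.49, edgeR adjusted p = 0.471).

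miR-20a, miR-17-5p and miR-18a showed overlapping groups on the TMM scale. bta-miR-20a had 2187, 2111 and 1446 reads in adipocytes and 1692, 606 and 1767 in preadipocytes. This corresponds to 108, 99.9 and 73.9 CPM in adipocytes and 116, 49.4 and 108 CPM in preadipocytes, with a log2 difference of 0.05 (SE 0.40, edgeR adjusted p = 0.924). The adipocyte libraries lay within the preadipocyte range. bta-miR-17-5p, with the same seed and a target site in the CDKN1A message in human cells, had 365, 474 and 294 reads in adipocytes and 380, 162 and 309 in preadipocytes. Its levels were 18.1, 22.4 and 15.0 CPM in adipocytes and 26.0, 13.2 and 18.9 CPM in preadipocytes (log2 difference -0.06, SE 0.36, edgeR adjusted p = 0.897). bta-miR-18a, whose seed differs from that of miR-17 and which has been described as targeting the estrogen receptor ESR1 in human cells, had 570, 530 and 448 reads in adipocytes and 466, 202 and 775 in preadipocytes. At 28.3, 25.1 and 22.9 CPM in adipocytes and 31.9, 16.5 and 47.4 CPM in preadipocytes its groups overlapped as well (log2 difference -0.33, SE 0.43, edgeR adjusted p = 0.598). These estimates do not show equal levels, since an SE of about 0.4 leaves room for differences of either sign. Their signs also depended on scaling. With library totals alone all 3 were positive, at 0.60 for miR-17-5p, 0.35 for miR-18a and 0.73 for miR-20a, a setting in which the median of all tested miRNAs was 0.62, and with upper-quartile factors all 3 were negative, at -0.37, -0.61 and -0.25, with a median of -0.31.

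**Figure D2:**
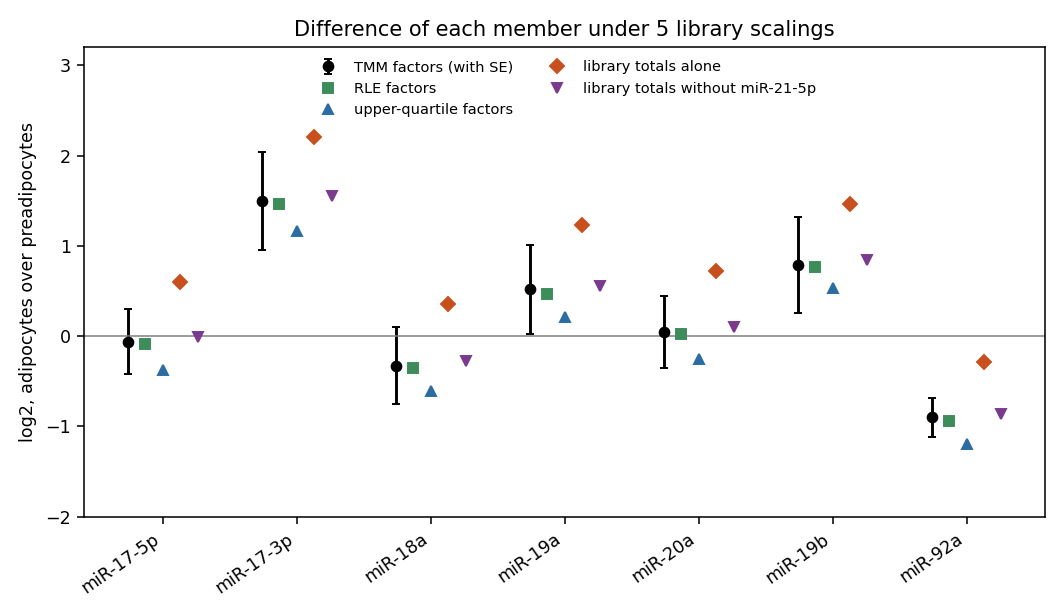
Log2 difference of adipocytes over preadipocytes for each member under 5 library scalings, with the SE drawn for the TMM fit (n = 3 per group). miR-17-3p, miR-19a and miR-19b were above 0 and miR-92a below 0 in all 5, while miR-17-5p, miR-18a and miR-20a changed sign with library totals alone or upper-quartile factors.

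Preadipocyte replicate 2 held the lowest TMM-scaled level of 6 of the 7 members and the highest level of the seventh, miR-92a. Without it the log2 differences were -0.29 for miR-17-5p, -0.67 for miR-18a, -0.27 for miR-20a and -0.80 for miR-92a, and 0 members passed. Of the members, miR-20a changed sign without this library.

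The make-up of the cluster's reads does not depend on library scaling and lay apart between the groups for 3 of the 7 members, miR-92a, miR-19b and miR-17-3p. Such shares were not taken for other clusters, but on the TMM scale groups lay apart for 44.7% of all tested miRNAs. The shares sum to the whole, so those of miR-92a and miR-19b, the largest, are not independent of each other. miR-92a made up 73.8%, 79.2% and 78.8% of the reads of the 7 members in adipocytes and 90.2%, 95.5% and 83.4% in preadipocytes. miR-19b made up 18.9%, 13.1% and 16.3% in adipocytes and 4.62%, 2.38% and 11.2% in preadipocytes. For both, every adipocyte library lay on one side of every preadipocyte library, with means of 77.3% ± 3.02 and 89.7% ± 6.10 for miR-92a and 16.1% ± 2.89 and 6.08% ± 4.60 for miR-19b in adipocytes and preadipocytes. The 95% Wilson interval of miR-92a in adipocyte replicate 2 ran from 78.8% to 79.6%, and in preadipocyte replicate 3, the nearest library of the other group, from 83.0% to 83.7%. There were 3.90, 6.03 and 4.82 reads of miR-92a for each read of miR-19b in adipocytes and 19.5, 40.1 and 7.42 in preadipocytes. miR-17-3p made up 0.151%, 0.191% and 0.058% of the reads in adipocytes and 0.041%, 0.015% and 0.031% in preadipocytes, groups that also lay apart. These shares are descriptions with no test, and those of miR-19b and miR-92a hold reads of both genomic copies.

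The same shares were taken without miR-19b and miR-92a, whose reads may come from either cluster. Of the reads of the other 5 members, miR-20a took 65.3%, 64.0% and 63.8% in adipocytes and 64.9%, 60.2% and 59.9% in preadipocytes. miR-18a took 17.01%, 16.1% and 19.8% in adipocytes and 17.9%, 20.1% and 26.3% in preadipocytes, and was highest in preadipocyte replicate 3. miR-17-5p took 10.9%, 14.4% and 12.97% in adipocytes and 14.6%, 16.1% and 10.5% in preadipocytes. The groups overlapped for these 3 members. miR-19a took 4.75%, 3.03% and 2.25% in adipocytes and 1.84%, 2.88% and 2.75% in preadipocytes, and overlapped as well. miR-17-3p took 2.06%, 2.49% and 1.19% in adipocytes and 0.806%, 0.696% and 0.576% in preadipocytes, and its groups lay apart. These shares rest on 7 to 82 reads in a library, and on the TMM scale groups lay apart for 44.7% of all tested miRNAs. There were 5.12 ± 0.79 reads of miR-20a for each read of miR-17-5p in adipocytes and 4.64 ± 1.00 in preadipocytes (SD, n = 3 each).

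**Figure D3:**
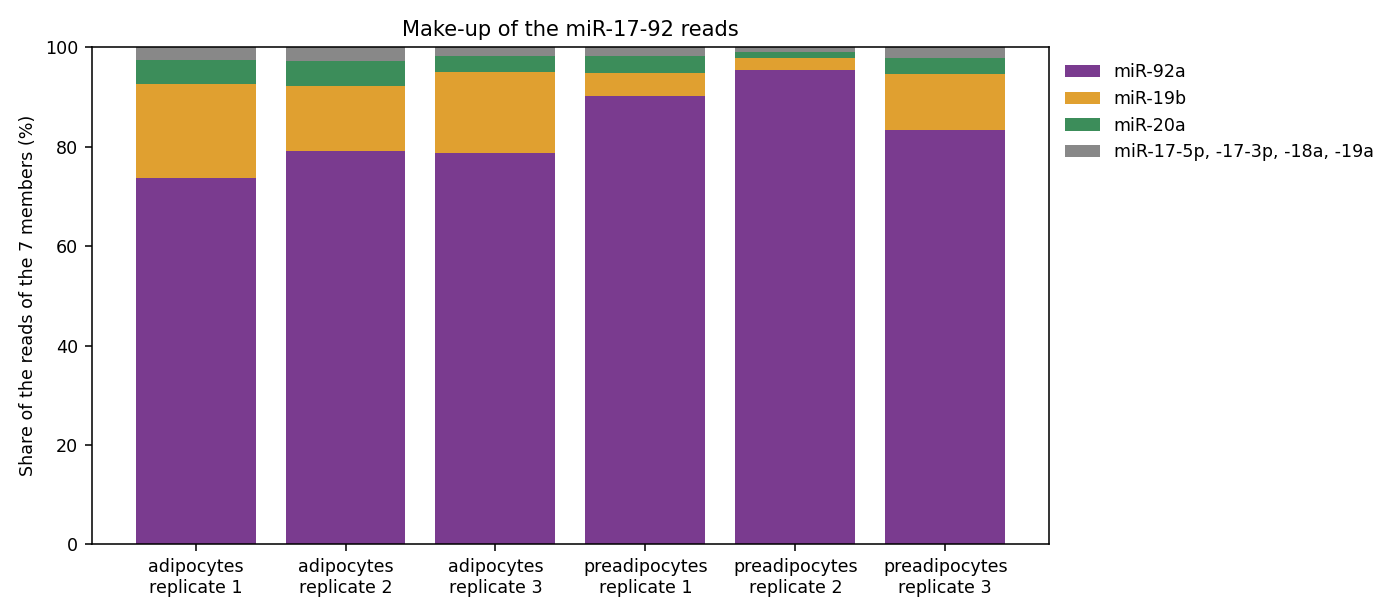
Share of each member in the reads of the 7 miR-17-92 members, per library, in percent. miR-92a makes up 73.8% to 79.2% in the adipocyte libraries and 83.4% to 95.5% in the preadipocyte libraries, and miR-19b fills most of the remainder in adipocytes.

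The hairpin of miR-17 gives a mature miRNA from each arm, of which the 5p arm is usually the dominant product. The 3p arm had 69, 82 and 27 reads in adipocytes and 21, 7 and 17 reads in preadipocytes. It was at 3.42, 3.88 and 1.38 CPM in adipocytes and 1.44, 0.57 and 1.04 CPM in preadipocytes, so adipocyte replicate 3 lay just inside the preadipocyte range. The log2 difference of bta-miR-17-3p was 1.499 (SE 0.54, edgeR adjusted p = 0.108), and with library totals alone it was 2.20 and passed (edgeR adjusted p = 0.0472). Within the hairpin, the 3p arm made up 15.9%, 14.8% and 8.41% of the reads in adipocytes and 5.24%, 4.14% and 5.22% in preadipocytes. The groups lay apart, but the exact 95% interval of adipocyte replicate 3 (5.62% to 12.0%) overlapped that of preadipocyte replicate 1 (3.27% to 7.89%). The log2 ratio of 5p to 3p reads was 2.78 ± 0.56 in adipocytes and 4.24 ± 0.17 in preadipocytes (SD, n = 3 each), a difference of -1.46. The exact two-sided permutation p was 0.1, the smallest that 3 libraries against 3 can give. Arm ratios of 5p to 3p lay apart and lower in adipocytes for 21.9% of the 32 hairpins with at least 10 reads per library on average for each arm. The difference was between -1.78 and -1.27 with each library left out in turn.

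**Figure D4:**
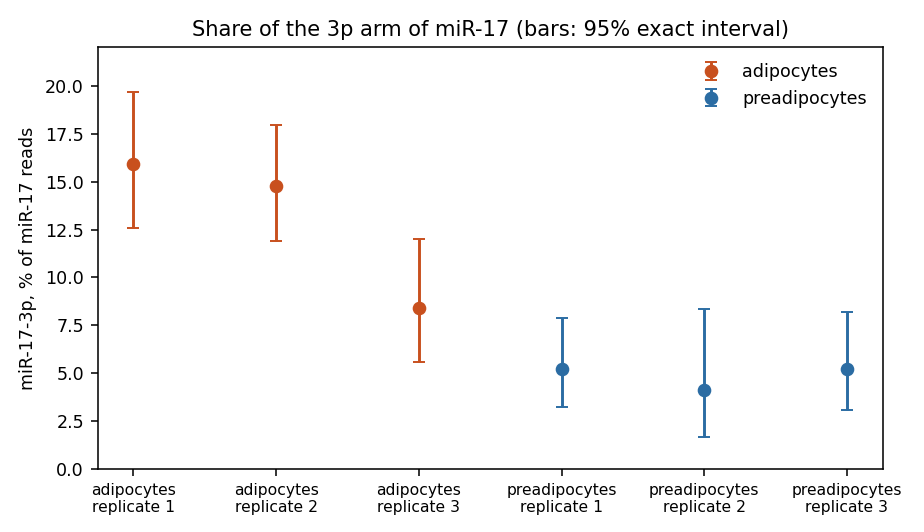
Share of the 3p arm in all miR-17 reads per library, in percent, with exact 95% intervals for counting error. Adipocyte libraries lie between 8.41% and 15.9% and preadipocyte libraries between 4.14% and 5.24%.

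Relatives of the cluster share its seeds or arose from copies of it. The list holds miR-106a, miR-18b, miR-20b and miR-363 of the miR-106a-363 cluster, miR-106b, miR-93 and miR-25 of the miR-106b-25 cluster in the DNA helicase gene MCM7, and miR-92b, miR-32 and miR-367, which share the miR-92a seed. Of these 10, 6 passed the low-count filter and 0 passed the test in either direction (edgeR, BH), where 6.28% of all tested miRNAs passed. At an unadjusted p of 0.05, 2 of the 6 passed, miR-106b and miR-92b, against 34.1% of all tested miRNAs. miR-93 and miR-25 outnumbered every member of the cluster except miR-92a, at 1248 ± 263 and 820 ± 84.0 CPM in adipocytes and 1013 ± 111 and 767 ± 160 CPM in preadipocytes. Their log2 differences were 0.30 for miR-93 (edgeR adjusted p = 0.401) and 0.10 for miR-25 (edgeR adjusted p = 0.785), and their groups overlapped on the TMM scale. Without a factor every adipocyte library lay above every preadipocyte library, at 1165 to 2164 RPM in adipocytes and 745 to 949 RPM in preadipocytes for miR-93 and 743 to 1242 RPM in adipocytes and 495 to 693 RPM in preadipocytes for miR-25. With library totals alone the log2 differences were 0.95 for miR-93 (edgeR adjusted p = 0.0654) and 0.76 for miR-25 (edgeR adjusted p = 0.106). The median of all tested miRNAs in that setting was 0.62. miR-106b was at 97.5, 83.7 and 28.2 CPM in adipocytes and 31.0, 15.0 and 35.3 CPM in preadipocytes (log2 difference 1.37, edgeR adjusted p = 0.145), with adipocyte replicate 3 inside the preadipocyte range on that scale. Without a factor its groups lay apart, at 28.8 to 131 RPM in adipocytes and 12.7 to 26.0 RPM in preadipocytes, and with library totals alone its log2 difference was 2.10 (edgeR adjusted p = 0.0559). Of all tested miRNAs, 38.6% lay apart and higher in adipocytes without a factor. miR-92b was at 53.9, 44.3 and 46.7 CPM in adipocytes and 114, 155 and 59.9 CPM in preadipocytes, groups that did not overlap. Its log2 difference was -1.18 (SE 0.40, edgeR adjusted p = 0.0955), and it passed without preadipocyte replicate 3 (-1.49, edgeR adjusted p = 0.0204). On the TMM scale miR-92a and miR-92b, which are nearly identical, thus both lay lower in every adipocyte library, while miR-25, with the same seed, overlapped. In that direction groups lay apart for 20.5% of all tested miRNAs on that scale. Without a factor the groups of miR-92b overlapped too.

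The miR-106a-363 cluster, which holds the second genes of miR-19b and miR-92a, also makes miRNAs with rows of their own. miR-20b had 363, 310 and 983 reads in adipocytes and 1303, 231 and 1000 in preadipocytes (log2 difference -1.03, edgeR adjusted p = 0.323). miR-363 had 1 to 3 reads in adipocytes and 1 to 7 in preadipocytes, and miR-18b had at most 1 read in adipocytes and at most 5 in preadipocytes. miR-106a had 2 to 5 reads in adipocytes and 3, 123 and 1 reads in preadipocytes. The value of 123 belonged to preadipocyte replicate 2, which also held 3514 reads of miR-32 where the other preadipocyte libraries had 9 each and adipocytes had 80, 95 and 7. The log2 difference of miR-32 was accordingly -5.02 with that library and 2.30 without it, and neither passed the test (edgeR adjusted p = 0.19 and 0.228).

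**Figure D5:**
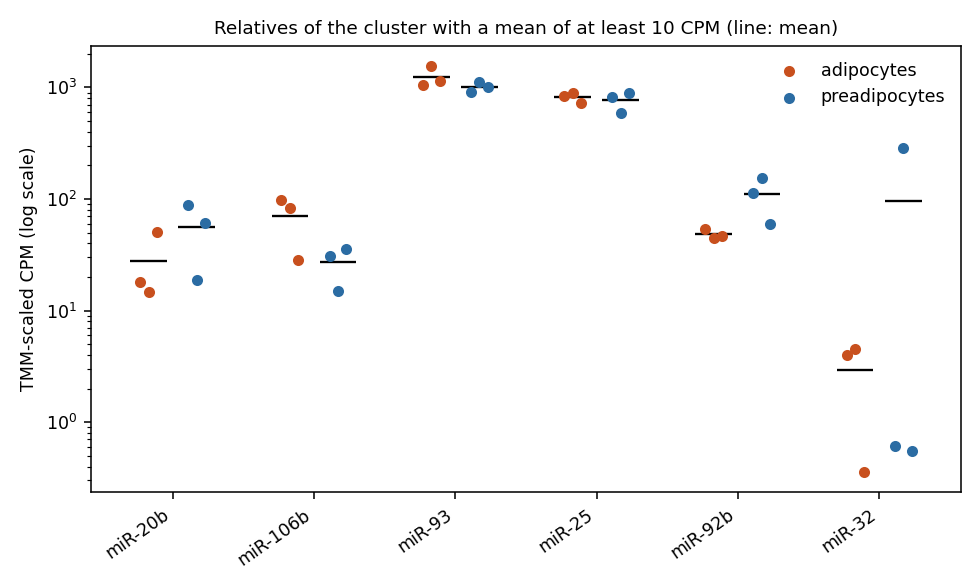
TMM-scaled level of the 6 relatives of the cluster with a mean of at least 10 CPM, per library, on a log axis, with lines at the group means (n = 3). miR-92b lies lower in all adipocyte libraries, and the preadipocyte mean of miR-32 rests on preadipocyte replicate 2.

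Near-identical miRNAs can exchange reads in counting, so reads were also summed by seed over members and relatives. The miR-17 seed sum was at 1279, 1758 and 1303 CPM in adipocytes and 1168, 1221 and 1271 CPM in preadipocytes, with a log2 difference of 0.25 (SE 0.23, edgeR adjusted p = 0.459). Of this sum the cluster's own members contributed 7.82% in adipocytes and 9.17% in preadipocytes on average, the rest coming mostly from miR-93. The miR-19 seed sum, in which both rows are cluster members, differed by 0.75 (SE 0.54, edgeR adjusted p = 0.338). The miR-92 seed sum was at 2533, 2529 and 2646 CPM in adipocytes and 4093, 4721 and 3828 CPM in preadipocytes. Its log2 difference was -0.71 (SE 0.20, edgeR adjusted p = 0.0605), and the cluster's miR-92a made up 66.3% of it in adipocytes and 76.6% in preadipocytes on average. None of the 4 seed sums passed the threshold.

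The table also lists reads by Rfam family, a separate annotation of hairpin families, and whether these rows share reads with the miRNA rows is not stated in the labels. The Rfam mir-19 row had 818, 728 and 683 reads in adipocytes and 85, 138 and 391 in preadipocytes. The Rfam mir-92 row had 8059, 9558 and 10002 reads in adipocytes and 11513, 15276 and 9040 in preadipocytes. There were 9.85, 13.1 and 14.6 mir-92 reads for each mir-19 read in adipocytes and 135, 111 and 23.1 in preadipocytes. The groups lay apart and the order of the means was that seen for miR-92a over miR-19b, again with preadipocyte replicate 3 closest to the adipocytes. Such ratios were not taken for other families, but on the TMM scale groups lay apart for 44.7% of all tested miRNAs. The Rfam mir-17 row had 1273, 1790 and 901 reads in adipocytes and 521, 314 and 835 in preadipocytes, or 84.7, 118 and 47.1 RPM in adipocytes and 29.9, 21.6 and 37.5 in preadipocytes. On the TMM scale its groups overlapped.

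Among 102 known miRNAs outside the cluster and its relatives with a mean of at least 100 CPM, the 5 with the most similar profile over the 6 libraries were miR-3600, miR-193b, miR-194, miR-185 and let-7g. Likeness was the root mean square distance of centred log2 CPM from the mean profile of the 5 members that averaged at least 10 CPM, and was 0.12, 0.18, 0.18, 0.19 and 0.22 log2 units in that order. None of these passed the test between the groups, with log2 differences from -0.05 (miR-193b) to 0.25 (let-7g), and the gene of miR-3600 overlaps that of miR-22. The mean profile itself differed little between the group means, so miRNAs chosen for likeness to it could hardly show a group difference. The distances of the members from the same profile, which they define, were 0.19 for miR-18a, 0.20 for miR-20a, 0.25 for miR-17-5p, 0.61 for miR-92a and 0.64 for miR-19b.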

How the data were processed

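Small RNA of 18 to 30 nt was cut from a gel, ligated to adapters and amplified, per the labels' protocols. The authors deposited read counts and TPM values for 2213 small RNAs in 6 libraries. The deposited TPM is the count divided by 1 constant per library, with 0 written as 0.001. The submitters' processing notes name Bowtie2. Genome build, annotation release and the handling of multi-mapping reads are not given in the sources used here.

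Counts of 771 known and 108 predicted miRNAs were tested with edgeR 4.0.16 in R 4.3.3 (TMM, filterByExpr, glmQLFit, glmQLFTest, two-sided, cell type as the only term), which left 414 miRNAs, with BH adjustment over all of them and a threshold of 0.05. An SE is the log2 difference over the square root of F. Genome-feature rows stayed out of library sizes, at 10.2% ± 1.91 of all table reads in adipocytes and 14.2% ± 7.73 in preadipocytes (SD, n = 3 each). Alternatives used other scalings, filters and rows, DESeq2 1.42.0, limma 3.58.1 on log2(TPM + 1), a replicate block, sums by seed and each library left out. Members and lists were chosen with earlier results of these data known. Named miRNAs are all members, the relatives, and the 5 nearest profiles (0.5 CPM added before log2). Leaving out libraries and using library totals for the relatives, and the count of arm ratios over other hairpins, were added after the data were seen. Seed families were assigned by name from general knowledge. The edgeR and profile steps were tested on simulated data. Figures used matplotlib 3.10.9.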

Additional observations from a re-analysis of the deposited data

How the results depend on the processing

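The count of members past the threshold was 0, and stayed 0 with RLE factors, library totals without miR-21-5p, no low-count filter, limma on TPM, the replicate block and sums by seed. It was 1 (miR-92a) with upper-quartile factors, a minimum of 10 CPM (5 members tested), known miRNAs alone and DESeq2. It was also 1 with library totals alone (miR-17-3p). With each library left out it ranged from 0 to 2, the 2 being miR-19b and miR-92a without preadipocyte replicate 3. Over all miRNAs, 26 of 414 passed. This count was 49 of 414 with upper-quartile factors, 97 of 414 with library totals alone and 43 of 217 with a minimum of 10 CPM. It was 59 of 365 with known miRNAs alone and 99 of 325 with limma on TPM. With DESeq2 it was 116 of 879, where any miRNA left without an adjusted p counts as not passing. With the replicate block 1 of 414 passed. With each library left out from 1 to 148 passed, the 148 of 465 without preadipocyte replicate 3. Deviations of same-numbered samples from their group means had correlations of 0.04, -0.34 and 0.05, and other pairs of -0.28 to 0.27. With only 3 libraries behind each mean, these values cannot tell whether the numbers pair the samples.

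The log2 difference of miR-92a stayed negative in all 17 alternatives (-1.20 to -0.29), and those of miR-19b (0.39 to 1.55), miR-19a (0.04 to 1.24) and miR-17-3p (1.07 to 2.20) positive in all that tested them. In sums by seed the value is that of the whole seed sum, not of the member alone. For miR-17-5p and miR-20a that sum was mostly miR-93 reads (0.25), and for miR-19a mostly miR-19b reads (0.75). The sign turned for miR-17-5p with library totals alone (0.60), no filter (0.039) and limma on TPM (0.49). It also turned without preadipocyte replicate 1 (0.20, within -0.29 to 0.20 over the libraries left out). It turned for miR-18a with library totals alone (0.35), limma on TPM (0.34) and without preadipocyte replicate 3 (0.080, within -0.67 to 0.080), and for miR-20a with upper-quartile factors (-0.25), a minimum of 10 CPM (-0.15) and without adipocyte replicate 1 (-0.066) or preadipocyte replicate 2 (-0.27, within -0.27 to 0.25). Among relatives, miR-25 turned without adipocyte replicate 3 (-0.0065) or preadipocyte replicate 2 (-0.086, within -0.086 to 0.22) and miR-32 without preadipocyte replicate 2 (2.30, within -5.66 to 2.30). The causes were not tested.

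The log2 ratio of the cluster's mean share of miRNA reads was -0.06, and -0.64 over reads other than miR-21-5p. With each library left out it was -0.16 to 0.05. The arm ratio difference was -1.42 with 1 read added to each arm. Depth limits miR-17-3p most, with 7 reads in preadipocyte replicate 2.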
